A study of Homo sapiens with 6 samples.

Results

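The genes described here are 10 that import cystine or make, use, reduce or break down glutathione: SLC7A11, SLC3A2, GCLC, GCLM, GSS, GSR, GPX4, GPX1, GLRX and CHAC1. They were taken by gene name from the 30015 genes of the expression table, and all 10 were among the 15251 genes tested, those whose mean reached 10 normalized counts. RNA of HMV-II, a cell line from human mucosal melanoma, was sequenced in 3 libraries of a control group (Vector, genotype WT, treatment none) and 3 libraries with EZH2 knockdown (shEZH2, treatment none). By the methods of the study, stable lines were made with lentiviral particles and puromycin selection, and the controls carried a scrambled shRNA. The knockdown columns of the table are headed sh1 and hold a single knockdown group, so effects of this hairpin on other transcripts and effects of lower EZH2 cannot be told apart. Neither the labels nor the methods say whether the 3 libraries of a group came from separate cultures, so the p-values measure only the spread between these libraries.

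Glutathione is a tripeptide of glutamate, cysteine and glycine and the main small thiol of the cell. Its supply is limited by cysteine, which most tumor cells take up in oxidized form, as cystine, through a transporter made of the light chain SLC7A11 and the heavy chain SLC3A2, and then assemble into glutathione in a pair of steps run by glutamate-cysteine ligase (GCLC and GCLM) and glutathione synthetase (GSS). Glutathione peroxidases such as GPX4 and GPX1 spend glutathione to reduce peroxides, and loss of GPX4 activity or of cystine lets lipid peroxides build up, which is the core of ferroptosis. The comparison of shEZH2 with Vector cells asks how the transcripts of this supply line stood after the knockdown.

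The depth was 13400290 to 15923029 reads in Vector libraries and 16129171 to 19128939 in shEZH2 libraries. The values below are normalized counts, reads on a gene divided by one size factor per library, and are listed in the order of replicates 1, 2 and 3. In bulk RNA, fewer cells that express a gene and less of its RNA per cell cannot be told apart. EZH2, the histone methyltransferase of a Polycomb repressive complex and the target of the knockdown, had 483, 437 and 552 normalized counts in the Vector group and 237, 247 and 225 in the shEZH2 group, or -1.04 as a log2 fold change (SE 0.14, adjusted p = 0.0142 in limma). All 8 melanocyte markers were above the minimum of the test, and they did not move as one. TYRP1 rose from 275 to 887 normalized counts and MLANA from 429 to 714, while TYR fell from 6343 to 3148. The log2 fold changes of these 3 were 1.68, 0.88 and -0.97 with all libraries and 1.64, 0.39 (short of the threshold given below) and -1.22 without Vector replicate 2. The 5 others did not pass the threshold. The summed level of the list, mostly PMEL, ran from 75515 to 100744 in Vector and from 78898 to 85355 in shEZH2 libraries. The 6 fibroblast markers summed to 176 to 245 and 250 to 311, nearly all from LUM, which rose from 148 to 247, and COL1A2, which fell from 65.5 to 36.9. The 4 epithelial markers in the table summed to 596 to 660 and 517 to 552, and the 2 leukocyte markers in the table (PTPRC and CD14) to at most 21.0. No marker was at 0 in all 6 libraries, and COL3A1, DCN and PDGFRA had means under 1.

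Vector replicate 2 stood apart from the other libraries. Set against replicates 1 and 3, its reads gave a chi-square of 120 and 117 per gene, where 1 would be sampling noise, while that pair itself gave 2.20 and the shEZH2 pairs 7.02 to 23.9. Short genes were low and long genes high in it: the median log2 ratio of Vector replicate 2 to the mean of the other Vector libraries was -0.56 in the shortest 20% of tested genes and 0.41 in the longest 20%. Among the glutathione genes, GPX1 (1430 bases) and GPX4 (2019 bases) lay lowest, at -1.69 and -1.59, and 4.28% and 4.95% of all tested genes lay lower, though both were above the 10th percentile of genes of like length. CHAC1 (2058 bases) was at -0.98 and SLC3A2 (5178 bases) at -0.91, while SLC7A11 (9645 bases) was at 0.48. The fold change of each of the 10 genes, and of each gene named from the other pathway lists, is therefore also given without Vector replicate 2.

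**Figure D1:**
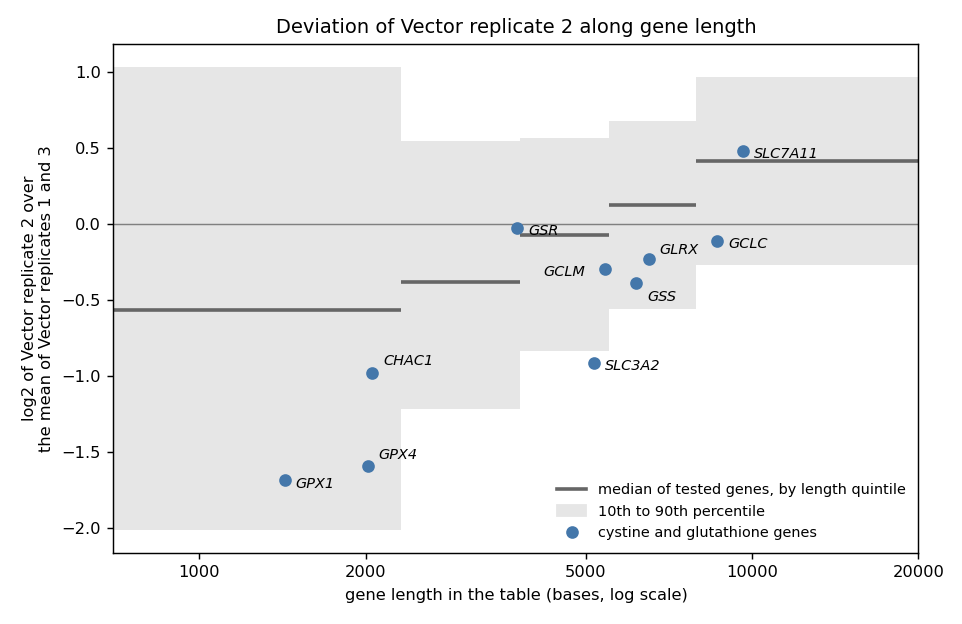
Log2 ratio of Vector replicate 2 to the mean of Vector replicates 1 and 3 (y axis) against gene length in bases on a log scale (x axis), with grey bars for the median and grey bands for the 10th to 90th percentile of tested genes in each 20% of genes by length, cut at the edges of the axis, and blue points for the 10 genes. The medians climb from -0.56 to 0.41, GPX1 and GPX4 lie in the lower part of their band, and SLC3A2 lies below its band.

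Of the 10 genes, CHAC1 rose and SLC7A11 fell in shEZH2 cells. The study picked SLC7A11, by a ferroptosis score, from genes altered in its own RNA sequencing of these cells. The fall of SLC7A11 here is therefore no separate evidence. A gene was called where its unadjusted p was under 0.05 and its fold change over 1.5 in either direction, the thresholds of the study. That is 1 of 10 in each direction, where 7.55% of all tested genes were higher and 7.07% lower. Without Vector replicate 2 the same 2 genes were called, against 7.05% and 5.64% of all genes. In that fit 5 of the 10 genes had an adjusted p under 0.05, as did 18.9% of all tested genes. With all libraries only the 2 called genes had one, as did 4.12% of all tested genes. With the fold change threshold left out, 4 of the 10 were lower at an unadjusted p under 0.05 (SLC7A11, GSR, GCLM and GCLC) and 1 was higher (CHAC1), beside 11.3% and 11.9% of all genes. In 6 of the 10 genes no library of one group reached the range of the other, as in 34.8% of all tested genes. The median log2 fold change of the 10 genes was 0.31 with all libraries and 0.12 without Vector replicate 2, and that of all genes was 0.04 and -0.01.

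**Figure D2:**
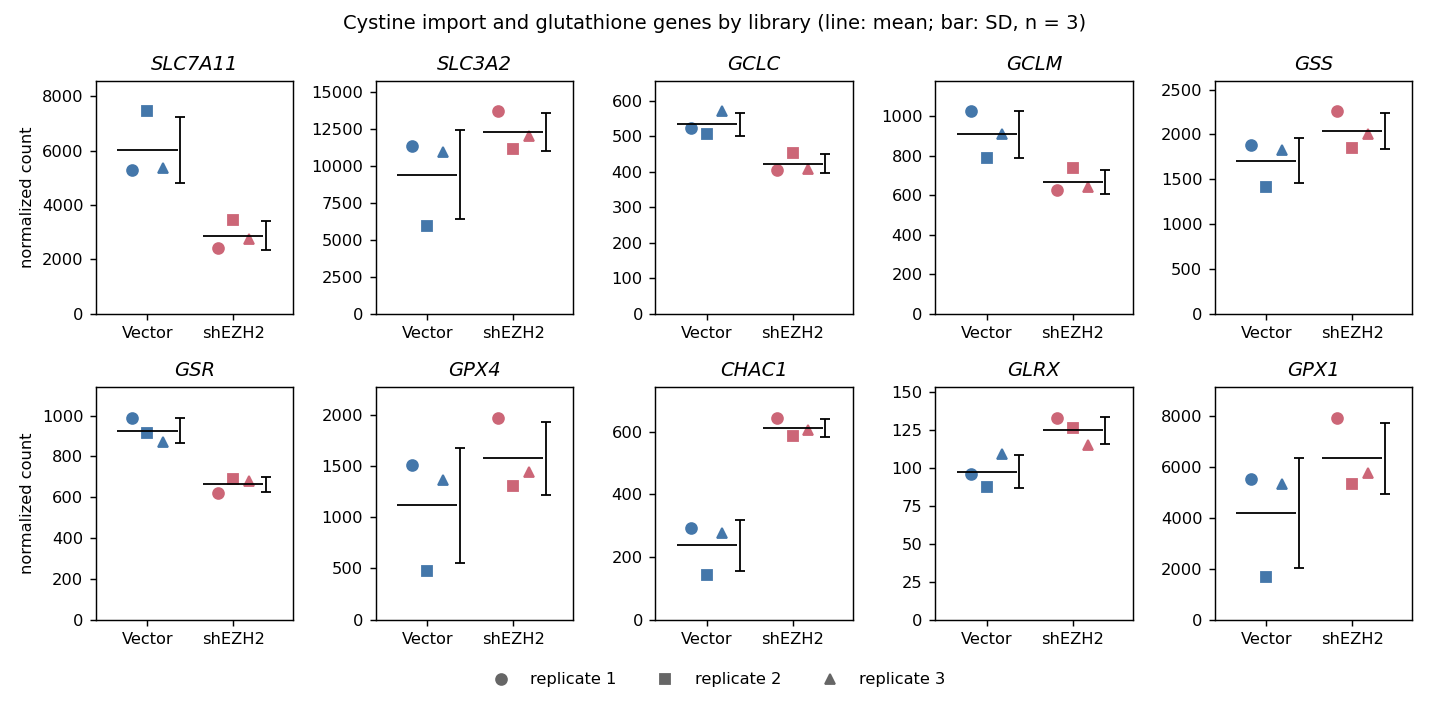
Normalized counts (y axis, from 0) of the 10 genes in each Vector (blue) and shEZH2 (red) library, with the replicate number as the marker shape, the group mean as a line and the SD (n = 3) as a bar. The groups are apart for SLC7A11, CHAC1, GCLC, GCLM, GSR and GLRX, and Vector replicate 2 lies far below the other 5 libraries for SLC3A2, GPX4 and GPX1.

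SLC7A11 (ENSG00000151012), the light chain that carries cystine in exchange for glutamate, is encoded at chr4:138164097-138242349 in GRCh38, on the minus strand. It had 5281, 7443 and 5359 normalized counts in the Vector group and 2401, 3446 and 2757 in the shEZH2 group. No shEZH2 library reached the lowest Vector library, and the mean fell by 52.4%. The log2 fold change was -1.07 (95% interval -1.54 to -0.60, adjusted p = 0.0331 in limma). It was -0.91 (95% interval -1.19 to -0.63) without Vector replicate 2 and -0.86 with the gene length trend removed within each library. The adjusted p ran from 0.0723 to 0.181 when one of the 5 libraries apart from Vector replicate 2 was dropped. SLC7A11-AS1, which overlaps SLC7A11 on the other strand, had a mean of 66.7 normalized counts beside 4448 for SLC7A11.

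SLC3A2 (ENSG00000168003), also called 4F2hc or CD98, is the heavy chain that brings SLC7A11 and several other light chains to the cell surface. It lies on the plus strand of chromosome 11 from 62856102 to 62888875. It had 11362, 5930 and 10947 normalized counts in the Vector group and 13717, 11179 and 12022 in the shEZH2 group. The groups overlapped, since shEZH2 replicate 2 was below Vector replicate 1, and Vector replicate 2 was the lowest library by a wide margin. The log2 fold change was 0.44 (95% interval -0.18 to 1.06, adjusted p = 0.351 in limma), and without Vector replicate 2 it was 0.14 (95% interval -0.08 to 0.36). In all 3 shEZH2 libraries SLC3A2 was above the Vector mean of 9413, while SLC7A11 was below its own. Vector replicates 1 and 3 were also above that SLC3A2 mean, which Vector replicate 2 lowered. Without that library the Vector mean of SLC3A2 was 11154, close to the 11179 of shEZH2 replicate 2.

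The balance of the paired chains was read within each library as the ratio of normalized counts per kilobase, which does not depend on the size factor. The ratio of SLC7A11 to SLC3A2 was 0.250, 0.674 and 0.263 in the Vector group and 0.0940, 0.166 and 0.123 in the shEZH2 group. All 3 shEZH2 libraries lay below all 3 Vector libraries. The log2 ratio differed by -1.51 between the groups (p = 0.1 in an exact two-sided permutation test, which cannot go lower with 3 libraries against 3). With the gene length trend removed the difference was -1.32. Without Vector replicate 2, whose ratio was the highest, the difference was -1.04 (exact permutation p = 0.2, the lowest this test gives with 2 against 3).

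Glutamate-cysteine ligase, the rate-limiting enzyme of glutathione synthesis, is built of the catalytic subunit GCLC and the modifier subunit GCLM. GCLC (ENSG00000001084), on the minus strand of chromosome 6 from 53497341 to 53616970, had 524, 508 and 570 normalized counts in the Vector group and 405, 453 and 409 in the shEZH2 group. GCLM (ENSG00000023909), on the minus strand of chromosome 1 from 93885205 to 93909456, had 1026, 789 and 911 in the Vector and 625, 739 and 642 in the shEZH2 group. Both subunits were lower in every shEZH2 library than in every Vector library, though by less than the fold change threshold. GCLC had a log2 fold change of -0.34 (95% interval -0.64 to -0.03, adjusted p = 0.180 in limma), and GCLM one of -0.44 (95% interval -0.79 to -0.09, adjusted p = 0.145 in limma). Without Vector replicate 2 they were -0.37 and -0.54, with adjusted p = 0.0447 and 0.00733 in limma. In that fit 18.9% of all tested genes had an adjusted p under 0.05. With the gene length trend removed, GCLC was at -0.16 (unadjusted p = 0.334 in limma) and GCLM at -0.40. The log2 ratio of GCLC to GCLM differed by 0.10 between the groups, within the spread of the Vector libraries (SD 0.18, n = 3; exact two-sided permutation test, p = 0.6).

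GSS (ENSG00000100983), the synthetase that adds glycine in the second step, lies on the minus strand of chromosome 20 from 34928433 to 34956027. It had 1877, 1417 and 1830 normalized counts in the Vector group and 2258, 1852 and 2008 in the shEZH2 group. The groups overlapped only through shEZH2 replicate 2, which lay between Vector replicates 3 and 1. The log2 fold change was 0.26 (95% interval -0.11 to 0.64, adjusted p = 0.360 in limma), and 0.13 (95% interval -0.10 to 0.36) without Vector replicate 2. GSR (ENSG00000104687), the reductase that returns oxidized glutathione to its reduced form with NADPH, lies on the minus strand of chromosome 8 from 30678061 to 30727999. It had 990, 916 and 871 normalized counts in the Vector group and 622, 689 and 681 in the shEZH2 group, lower by 28.3% on average with no overlap. GSR had a log2 fold change of -0.48 (95% interval -0.78 to -0.18, unadjusted p = 0.00618, adjusted p = 0.0820 in limma), short of the fold change threshold. It was -0.48 without Vector replicate 2 (adjusted p = 0.0101 in limma) and -0.55 with the length trend removed, and among the 10 genes GSR was the one that Vector replicate 2 moved least, by -0.02 from the other Vector libraries.

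**Figure D3:**
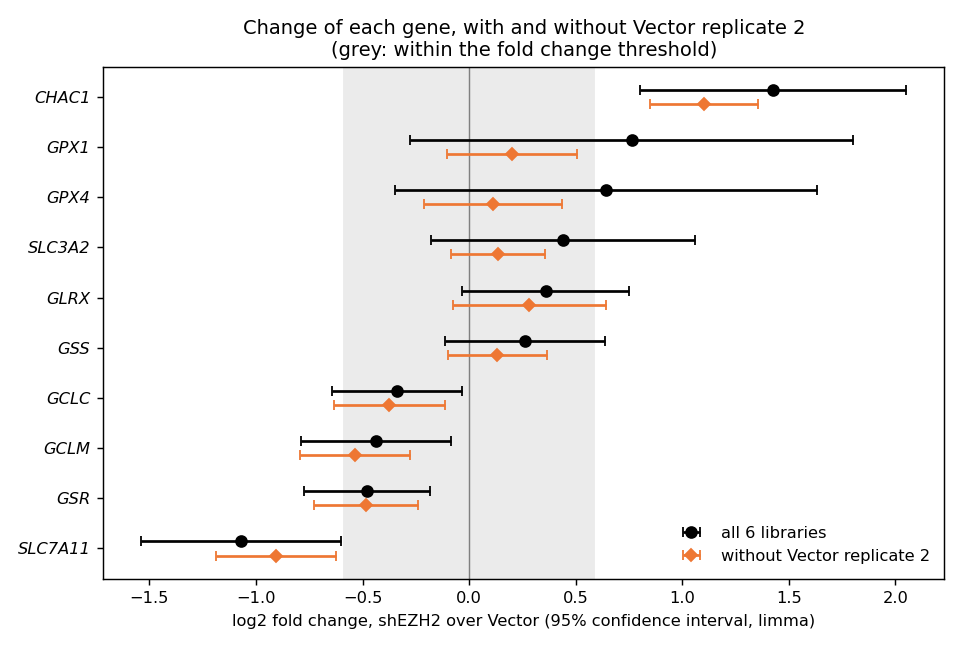
Log2 fold change of shEZH2 over Vector (x axis) for each of the 10 genes, with the 95% confidence interval from limma, for all 6 libraries (black circles) and without Vector replicate 2 (orange diamonds); the grey band spans fold changes under the threshold of 1.5. Only CHAC1 and SLC7A11 have intervals outside the band, and GPX1, GPX4 and SLC3A2 move toward 0 without Vector replicate 2.

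GPX4 and GPX1 are selenoproteins, with selenocysteine at the active site. GPX4 reduces lipid hydroperoxides inside membranes and GPX1 reduces hydrogen peroxide in the cytosol. GPX1 (ENSG00000233276), on the minus strand of chromosome 3 from 49357171 to 49358600, had 5527, 1685 and 5317 normalized counts in the Vector group and 7933, 5319 and 5742 in the shEZH2 group. GPX4 (ENSG00000167468), on the plus strand of chromosome 19 from 1103926 to 1106791, had 1509, 475 and 1358 in the Vector and 1971, 1306 and 1441 in the shEZH2 group. In both genes the groups overlapped, Vector replicate 2 was far below the 5 others, and shEZH2 replicate 1 was the highest. GPX1 had a log2 fold change of 0.76 (95% interval -0.28 to 1.80, adjusted p = 0.339 in limma) and GPX4 one of 0.64 (95% interval -0.35 to 1.63, adjusted p = 0.389 in limma). Without Vector replicate 2 they were 0.20 (95% interval -0.10 to 0.51) and 0.11 (95% interval -0.21 to 0.44). A change of GPX4 or GPX1 was thus not detectable here, and without that library the upper ends of both intervals lay below the fold change threshold. The table annotates GPX1 as a polymorphic pseudogene and lists GPX1P1, a processed copy, at a mean of 67.4 normalized counts.

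The 2 peroxidases kept nearly the same ratio in every library. The ratio of GPX4 to GPX1 per kilobase was 0.194, 0.200 and 0.181 in the Vector group and 0.176, 0.174 and 0.178 in the shEZH2 group. Vector replicate 2, which held less than the other libraries of both, kept the ratio of its group. The log2 ratio was lower by a small margin in shEZH2 cells, with a difference of -0.12 (p = 0.1 in an exact two-sided permutation test, again the lowest possible) and of -0.09 without Vector replicate 2.

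**Figure D4:**
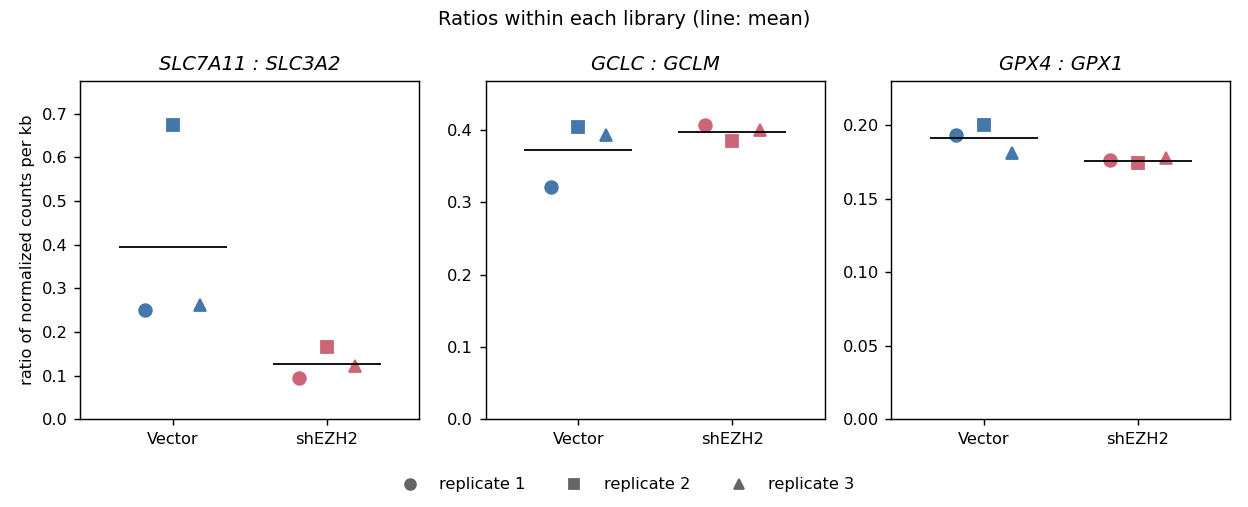
Ratio of normalized counts per kilobase (y axis, from 0) of SLC7A11 to SLC3A2, GCLC to GCLM and GPX4 to GPX1 in each Vector (blue) and shEZH2 (red) library, with the replicate number as the marker shape and the group mean as a line. The first ratio is 0.250 to 0.674 in Vector and 0.0940 to 0.166 in shEZH2 libraries, whereas the 2 others shift by little.

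CHAC1 (ENSG00000128965), a gamma-glutamylcyclotransferase that breaks glutathione down inside the cell and is a well-known target of ATF4 in the stress response, lies on the plus strand of chromosome 15 from 40952962 to 40956519. It had 292, 144 and 278 normalized counts in the Vector group and 646, 587 and 604 in the shEZH2 group. All shEZH2 libraries were above all Vector libraries, and the shEZH2 libraries lay close together. The log2 fold change was 1.43 (95% interval 0.80 to 2.05, adjusted p = 0.0330 in limma), 1.10 without Vector replicate 2 (95% interval 0.85 to 1.35) and 1.22 with the length trend removed. The adjusted p ran from 0.0503 to 0.169 when one of the 5 libraries apart from Vector replicate 2 was dropped. GLRX (ENSG00000173221), glutaredoxin 1, which removes glutathione from modified protein thiols, lies on the minus strand of chromosome 5 from 95751319 to 95823005. It was the lowest of the 10 genes, with 96.2, 87.3 and 109 normalized counts in the Vector group and 133, 126 and 116 in the shEZH2 group. The groups did not overlap, and the log2 fold change was 0.36 (95% interval -0.03 to 0.75, adjusted p = 0.250 in limma), with 0.28 without Vector replicate 2. GLRX overlaps RHOBTB3 (mean 3111 normalized counts) on the opposite strand, and the strandedness of the libraries is not given in the sources used here, so reads of the 2 genes in the overlap cannot be told apart.

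Per kilobase of gene model, the order of the levels was led in both groups by GPX1 (2920 normalized counts per kilobase in Vector, 4427 in shEZH2 cells) and SLC3A2 (1818 and 2377), and closed by GCLC (61.8 and 48.8) and GLRX (15.0 and 19.2). SLC7A11 stood at rank 3 in Vector cells with 625, just above GPX4 with 552. That order rests on Vector replicate 2: without it GPX4 had 710 and SLC7A11 552, which puts SLC7A11 at rank 4. In shEZH2 cells SLC7A11 stood at rank 6 with 297. CHAC1 stood at rank 8 in Vector cells, with 116 or, without Vector replicate 2, 138, and at rank 5 in shEZH2 cells with 298. In Vector cells the ranges over the 3 libraries overlapped for GPX1 and SLC3A2, for GPX4 with each of SLC7A11, GSS and GSR, and for GSS and GSR. No ranges overlapped with Vector replicate 2 left out. In shEZH2 cells the ranges of GSS, CHAC1 and SLC7A11 overlapped one another.

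Within the shEZH2 group, replicate 1 lay furthest from the Vector group in all 10 genes, in whichever direction the gene differed, where this library was the furthest for 50.7% of all tested genes. Replicate 2 was the nearest to the Vector group in 9 of the 10, with GLRX the exception, and for 44.4% of all genes. EZH2 itself was not ordered in this way, with 237, 247 and 225 normalized counts in the shEZH2 group. Within the Vector group, replicate 2 was the furthest from the shEZH2 group in 7 of the 10 genes and for 65.2% of all tested genes. These counts were chosen after the values were seen and are given as a description.

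Promoter sequences of 7 of the 10 genes were found in the RefSeq table of GRCh38.p14. SLC7A11, GSS and GSR had no entry. The 250 bases before the annotated start were searched on both strands for TGACNNNGC, the core of the antioxidant response element bound by NRF2 with small MAF proteins, and for TGATGNAA, the core of the amino acid response element bound by ATF4 with C/EBP proteins. CHAC1 was the only one of the 7 with the second motif, which 3.14% of all 35116 promoters held. GCLM and 1 of the 3 annotated starts of SLC3A2 held the first motif, as did 10.9% of all promoters. A match describes the letters of the sequence and not a bound site. The promoters are shown 5′ to 3′ on the strand of the gene, with the motif in capitals. That of CHAC1 spans chr15:40953221-40953470 on the plus strand, and the match begins at -209 from the start and reads TTGCATCA, on the opposite strand. That of GCLM spans chr1:93909431-93909680 on the minus strand, with the match at -34, also on the opposite strand. That of SLC3A2 spans chr11:62881449-62881698 on the plus strand, with the match TGACTCAGC at -37. The windows of CHAC1 and SLC3A2 lie inside the gene models of the table, which begin further upstream.
CHAC1: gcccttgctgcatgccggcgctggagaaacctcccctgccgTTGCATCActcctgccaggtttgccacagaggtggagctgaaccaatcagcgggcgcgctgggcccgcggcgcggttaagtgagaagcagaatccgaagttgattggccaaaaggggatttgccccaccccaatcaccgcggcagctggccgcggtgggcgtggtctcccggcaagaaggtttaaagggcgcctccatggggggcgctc
GCLM: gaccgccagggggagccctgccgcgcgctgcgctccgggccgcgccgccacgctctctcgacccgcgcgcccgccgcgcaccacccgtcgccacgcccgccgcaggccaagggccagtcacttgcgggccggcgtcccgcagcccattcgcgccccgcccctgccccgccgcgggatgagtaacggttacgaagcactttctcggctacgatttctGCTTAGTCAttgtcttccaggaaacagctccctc
SLC3A2: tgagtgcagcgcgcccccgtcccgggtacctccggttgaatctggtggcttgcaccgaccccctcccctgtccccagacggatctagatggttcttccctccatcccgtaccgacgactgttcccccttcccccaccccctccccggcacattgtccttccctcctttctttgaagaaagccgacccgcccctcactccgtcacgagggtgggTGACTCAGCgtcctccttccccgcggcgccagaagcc
With the 50 bases after the start included, the shares of all promoters with a match were 3.62% and 13.3%, and that same SLC3A2 start then also held the second motif. GC boxes (GGGCGG, bound by SP and KLF factors) were found in SLC3A2, GCLM, GPX4 and GPX1 and not in GCLC, CHAC1 or GLRX, beside 42.6% of all promoters.

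Of 9 regulators of these genes, KLF14 alone passed the threshold in limma, with and without Vector replicate 2. That is 1 higher and 0 lower of 9, beside 7.55% and 7.07% of all tested genes, or 7.05% and 5.64% without that library. The study picked KLF14 from genes altered in its own RNA sequencing of these cells and found in its EZH2 ChIP sequencing. Its call here is therefore no separate evidence. NRF2 (NFE2L2), which drives SLC7A11, GCLC, GCLM and GSR, had a log2 fold change of -0.35 (adjusted p = 0.302 in limma), and of -0.52 (adjusted p = 0.00774) without Vector replicate 2. Its inhibitor KEAP1 was at -0.39 (adjusted p = 0.232), and at -0.53 (adjusted p = 0.0136) without that library. Both were thus short of the fold change threshold in each fit. In the second they had an adjusted p under 0.05, as did 18.9% of all tested genes. The competing repressor BACH1 was at -0.44 (adjusted p = 0.303), or -0.23 without that library, and the small MAF partner MAFG at -0.04 (adjusted p = 0.878), or -0.09. NRF1 (NFE2L1), which governs proteasome genes, was at -0.57 (adjusted p = 0.116), just short of the threshold, which it passed at -0.61 in DESeq2 and -0.59 in edgeR. It was at -0.43 (adjusted p = 0.00818 in limma) with Vector replicate 2 left out. ATF4, which drives SLC7A11, SLC3A2 and CHAC1 under amino acid shortage, had a mean of 10712 normalized counts in Vector and 14941 in shEZH2 cells, a log2 fold change of 0.56 (adjusted p = 0.298) and of 0.20 without Vector replicate 2. Its partners in that response were at 0.37 for ATF3 (adjusted p = 0.323) and 0.45 for DDIT3 (adjusted p = 0.629), and without Vector replicate 2 they were at 0.13 and -0.27. KLF14, a zinc finger transcription factor of the KLF family that the study follows, rose from 29.9 to 81.7 normalized counts, with a log2 fold change of 1.44 (adjusted p = 0.0212 in limma), or 1.32 without Vector replicate 2. The median log2 fold change of the 9 was -0.04 with all libraries and -0.23 without Vector replicate 2.

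The wider pathway was read from 8 lists with 99 genes in all, of which 85 were in the table and 72 were tested. Of the 72, 9 rose (12.5%) and 6 fell (8.33%), beside 7.55% and 7.07% of all tested genes. Without Vector replicate 2, 5 rose and 5 fell (6.94% each), beside 7.05% and 5.64%. The median log2 fold change of the 72 was 0.21 with all libraries and 0.00 without Vector replicate 2.

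Among the amino acid transporter subunits that share SLC3A2 or carry related substrates, 0 of 8 tested rose and 2 fell, and the median was -0.03. SLC1A4, an exchanger of small neutral amino acids including cysteine, fell from 9440 to 5044 normalized counts (log2 fold change -0.90, adjusted p = 0.0251 in limma). MFSD12, which moves cysteine into lysosomes and melanosomes, fell from 13981 to 8036 (log2 fold change -0.78, adjusted p = 0.0541). Without Vector replicate 2 both passed the threshold again, at -0.79 and -0.63, and the median was again -0.03. In the list of transsulfuration, the methionine cycle and other sulfur enzymes, 2 of 9 rose and 0 fell, with a median of -0.22. AHCY, which cleaves S-adenosylhomocysteine to homocysteine, rose from 3608 to 5659 (log2 fold change 0.65, adjusted p = 0.0340), and MPST, a sulfurtransferase acting on 3-mercaptopyruvate, from 685 to 1117 (log2 fold change 0.73, adjusted p = 0.117). With Vector replicate 2 left out, MPST was short of the threshold, at 0.49, and AHCY passed it at 0.64. The median of the list was then -0.19.

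In the list of glutathione breakdown and recycling, 1 of 6 rose and 0 fell, with a median of 0.43. CHAC2, a paralog of CHAC1 with slower turnover, rose from 120 to 181 normalized counts (log2 fold change 0.60, adjusted p = 0.133 in limma), and was at 0.46, short of the threshold, without Vector replicate 2, where no gene of the list passed and the median was 0.23. Of the other glutathione peroxidases and glutaredoxins, 0 of 6 passed the threshold in either direction, and the median was 0.35, or -0.04 without Vector replicate 2. Among 13 glutathione S-transferases tested, which join glutathione to electrophiles, 2 rose and 1 fell, with a median of 0.52. GSTM3 and GSTM4 rose by 0.91 and 0.65 on the log2 scale (adjusted p = 0.166 and 0.125). They were short of the threshold, at 0.48 and 0.43, without Vector replicate 2, where the median of the list was 0.15. GSTO2 fell by 0.93 from a mean of 27.3 normalized counts (adjusted p = 0.129), and by 0.79 without Vector replicate 2. The GSTM genes are close paralogs, and reads shared among them could be split by the counting.

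**Figure D5:**
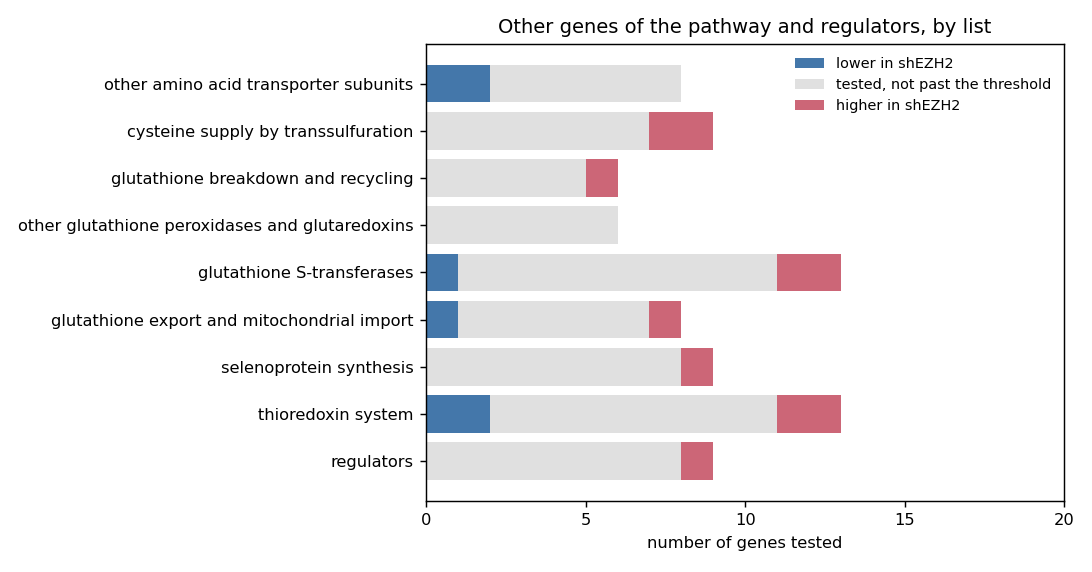
Number of tested genes (x axis) in each list of other pathway genes and in the list of regulators that were lower (blue), not past the threshold (grey) or higher (red) in shEZH2 cells. In each list at most 2 genes were called in a direction. The transporter list has called genes in the lower direction alone. The list of transsulfuration (2 genes) and those of glutathione breakdown, selenoprotein synthesis and regulators (1 gene each) have them in the higher direction alone. Of all tested genes, 7.55% were higher and 7.07% lower. Without Vector replicate 2, 0 genes of the glutathione breakdown and selenoprotein synthesis lists were called, while the transsulfuration and regulator lists kept 2 and 1.

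Of 8 genes for glutathione export and mitochondrial import, 1 rose and 1 fell, with a median of 0.10. SLC25A10, the mitochondrial dicarboxylate carrier, rose from 73.3 to 142 normalized counts (log2 fold change 0.95, adjusted p = 0.0889 in limma), and ABCC2, an efflux pump for glutathione conjugates, fell from 2247 to 1433 (log2 fold change -0.64, adjusted p = 0.0831), or -0.48 and short of the threshold without Vector replicate 2. SLC25A10 then passed at 0.74, and the median was again 0.10. Of 9 genes that make selenoproteins such as GPX1 and GPX4, 1 rose and 0 fell, with a median of 0.15, or 0.01 without Vector replicate 2. The gene that rose was TRNAU1AP, which associates with selenocysteine tRNA, from 180 to 272 (log2 fold change 0.63, adjusted p = 0.156, and 0.39 without Vector replicate 2). In the thioredoxin system, which reduces cystine and peroxiredoxins alongside glutathione, 2 of 13 rose and 2 fell, with a median of 0.44, or -0.08 without Vector replicate 2. TXNRD2, the mitochondrial thioredoxin reductase, rose from 815 to 1523 (log2 fold change 0.94, adjusted p = 0.0913). TXNRD3, named after its values were seen, was the other gene that rose, at 0.59 and, without Vector replicate 2, 0.67. TXNRD1, also named after its values were seen, was lower, with means of 21175 in Vector and 15199 in shEZH2 cells. Its log2 fold change was -0.48 (adjusted p = 0.133 in limma), and -0.54 without Vector replicate 2, short of the threshold in both fits. TXNIP, which binds thioredoxin and restrains glucose uptake, fell from 353 to 182 (log2 fold change -0.92, adjusted p = 0.0466), and SRXN1, a reductase of overoxidized peroxiredoxins and an NRF2 target, from 430 to 256 (log2 fold change -0.78, adjusted p = 0.117). TXNRD2, TXNIP and SRXN1 passed the threshold again without Vector replicate 2, at 0.65, -1.10 and -0.89.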

How the data were processed

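Total RNA was taken from 3 Vector and 3 shEZH2 samples of HMV-II cells, and poly(A) libraries were sequenced on an Illumina NovaSeq. The deposited values are a signal, made by the authors from reads counted per gene (featureCounts 1.5.0-p3) and divided by one DESeq2 1.20.0 size factor per library. The group means of the table, the authors' log2 fold change and their p-values were not used for any result. All 6 single-library columns were used, and 0 were left out. The submitters' processing notes name hg19, but 29.4% of 20629 gene ends matched GRCh38 and 0.524% GRCh37, so coordinates are given as GRCh38. The aligner is not given in the sources used here.

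In each library 100% of values were whole multiples of the smallest (tolerance 0.001), which gave back the reads. Since the values are normalized, limma 3.58.1 (lmFit, eBayes with trend) was run in R 4.3.3 on log2(normalized count + 1) for genes with a mean of at least 10, so fold changes are on that scale. Genes were called at an unadjusted p under 0.05 and a fold change over 1.5 in either direction, with Benjamini-Hochberg adjustment over all genes tested. The 3 ratios were compared by exact two-sided permutation tests with all libraries (adjusted p = 0.15, 0.6 and 0.15 over the 3) and again without Vector replicate 2 (0.3, 0.4 and 0.3). The recovered reads were also fitted with edgeR 4.0.16 (1086 genes higher, 1191 lower) and DESeq2 1.42.0 (1045 and 1321). Other alternatives were TMM factors, pseudocounts of 0.1 and 5, no minimum and a minimum of 50, a replicate block, removal of the gene length trend by loess (span 0.3), array weights, other thresholds and each library left out. The models were tested on simulated data. The simulated libraries all had the same spread, and none deviated as Vector replicate 2 did, so that case was not tested. The members, lists and tests were chosen with earlier results of these data known. Named genes were the 10 members, EZH2, all regulators, the called genes without overlap in each list (at most the 3 largest) and the 5 genes most correlated with SLC7A11. Where the table lists a symbol more than once, the row with most counts was used.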

Additional observations from a re-analysis of the deposited data

How the results depend on the processing

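SLC7A11 was called lower and CHAC1 higher in every fit that was run, and of the 160 values of the 10 genes under the alternatives, 159 kept both direction and side of the threshold. The exception was GPX1 under the replicate block, where it passed the threshold at the same log2 fold change of 0.76 (adjusted p = 0.188 in limma), so that 2 of the 10 genes were called higher. Same-numbered libraries did not all deviate together (correlations of 0.28, 0.22 and -0.11 for numbers 1, 2 and 3), and Vector replicate 3 correlated best with shEZH2 replicate 1, so the numbers were not taken as pairs. The block also left 1 gene lower, as in the fit without it. The adjusted p of SLC7A11 ran from 1.81e-07 to 0.181 over the alternatives and that of CHAC1 from 9.30e-08 to 0.169. Both lower ends came from the fit with array weights, which ran from 0.0724 for Vector replicate 2 to 8.62 for shEZH2 replicate 3. Without the fold change threshold, 4 of the 10 genes were lower.

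Of the 72 other pathway genes, 9 were called higher and 6 lower. With array weights 4 were higher, with an adjusted p under 0.05 there were 1 higher and 2 lower, and with no fold change threshold 14 and 10, the last 2 being stricter and looser by construction. With each library left out, the higher genes ran from 5 to 15 and the lower from 5 to 7; the higher count was 5 without Vector replicate 2, shEZH2 replicate 1 or shEZH2 replicate 2 and 15 without Vector replicate 3. Over all genes, 1151 were higher and 1078 lower, against 345 and 279 with an adjusted p, 1812 and 1726 with no fold change threshold, and 849 to 1525 and 773 to 1318 with each library left out. DDIT3 reversed to -0.30 with array weights, and ran from -0.27 to 0.81 with each library left out, the lowest being that without Vector replicate 2. With array weights KEAP1 passed the threshold at -0.63, and TXNRD2 was short of it at 0.56. The log2 ratio of GCLC to GCLM moved to 0.24 with the length trend removed, which treats the longer GCLC and the shorter GCLM differently by construction. With each library left out, the SLC7A11 to SLC3A2 difference ran from -1.76 to -1.04, the GCLC to GCLM difference from -0.00460 to 0.16 and the GPX4 to GPX1 difference from -0.16 to -0.09. Elsewhere the cause was not tested. Depth did not limit the 10 genes much, since the fewest reads on any of them in a library were 75, for GLRX. Genes with a mean under 10 normalized counts were not tested.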

Other observations

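Across the 6 libraries, the 5 genes whose log2 levels followed SLC7A11 most closely, among 10654 other genes averaging at least 100 normalized counts, were MTDH, SEC62, RDX, AC060780.1 and UGGT2, with Pearson's r of 0.998 to 1.00. MTDH encodes a membrane protein tied to several cancers, SEC62 a part of the protein translocation machinery of the endoplasmic reticulum, RDX the membrane-to-actin linker radixin and UGGT2 a sensor of glycoprotein folding. Their log2 fold changes were -0.55, -0.57, -0.75, -0.36 and -0.65, all smaller in size than the -1.07 of SLC7A11. The correlation is a description over 6 libraries that share the group difference and the deviation of Vector replicate 2. Among the other 9 glutathione genes, the correlation with SLC7A11 was positive for GSR (0.92), GCLC (0.87) and GCLM (0.76) and negative for the 6 others, from -0.97 for CHAC1 to -0.75 for GPX4.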
